A study of Mus musculus with 130 samples.

Results

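The kinetochore ties each chromosome to the spindle, and the spindle checkpoint holds cells in mitosis until every kinetochore is attached. The genes described here were the 20 entries of the count table named Cenp plus 1 letter and an optional digit, together with 23 kinetochore, checkpoint and chromosomal passenger genes chosen by name. They make up 43 of the 52550 genes in the table, of which 41706 had a count. Sgol1 and Sgol2a are listed there as Sgo1 and Sgo2a and were matched through RefSeq synonyms. By role, 15 belonged to the inner kinetochore, 9 to the outer kinetochore, 5 to the corona and the Ska complex, 6 to the spindle checkpoint and 5 to the passenger complex and the shugoshins. The remaining 3, Cenpb, Cenpj and Cenpv, carry a Cenp symbol and were placed in none of these groups. All 43 genes were kept by the filter on low counts, and the lowest count of any of them in a library was 13 reads, for Ska1.

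RNA came from whole FVB/NJ wild-type mouse embryos with FUCCI, a reporter that colours nuclei red before S phase and green from S phase to mitosis, and the labels name no mutation or agent in any group. Minced embryos were sorted by flow into gates labelled BR (G0), DR (G1), YE (G1-S) and GR (S-G2-M), and unsorted cells (US) were sequenced beside them. The embryos were at E10.5 (preparations WT1, WT2), E11.5 (WT3) or E13.5 (5, 8), which gave 25 libraries with n = 5 preparations per fraction. Whether a preparation held 1 embryo or several, and which promoter drives the reporter, is not given in the labels, so the p-values measure only the spread between these samples. Levels are CPM, counts per M (mega) counts of a library, with library sizes scaled by TMM factors, and lists of 5 values run in the order WT1, WT2, WT3, 5 and 8. A change was called at an edgeR adjusted p under 0.05 over all 23506 genes tested, with the standard error of the log2 change after ±.

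Libraries held 14.7 M to 58.5 M counts (median 22.9 M). Preparations 5 and 8 stood apart from the WT-titled ones: mitochondrially encoded genes took 1.66% to 3.42% of their counts against 0.372% to 0.701%. The day E13.5 and this set of preparations cannot be told apart. The gates also differed in cell type markers. The summed level of 8 neuronal markers was 4684 to 8306 CPM in G0 and 189.5 to 521.5 CPM in S-G2-M, and that of 6 erythroid markers was 11323 to 35162 CPM in unsorted cells and at most 2876 CPM in any sorted gate. In these bulk samples, fewer cells of a type and less RNA per cell cannot be told apart.

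A kinetochore is built on centromeric nucleosomes that carry the histone H3 variant CENP-A. The constitutive centromere-associated network (CCAN) sits on them throughout the cycle, and in mitosis the KMN network, made of Knl1, the Mis12 complex and the Ndc80 complex, joins the CCAN to microtubules. Unattached kinetochores recruit the checkpoint kinases and Mad and Bub proteins, which restrain the anaphase-promoting complex, while Aurora B and its partners in the passenger complex release faulty attachments. Many of these genes are known targets of the DREAM complex, which represses them in quiescence and early G1, and of B-Myb and FoxM1, which activate them later in the cycle.

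S-G2-M cells were set against G0 cells to ask how far expression of the kinetochore differs between cycling and resting cells of the embryo. Of the 43 genes, 40 rose and 0 fell, against 27.5% of all genes tested that were higher and 26.6% that were lower. Their median log2 change was 3.41, beside -0.01 over all genes tested. The corona and Ska genes had the largest median (5.29), followed by the passenger complex and shugoshins (5.15), the checkpoint (4.24), the outer kinetochore (3.86), the inner kinetochore (3.0) and the 3 remaining Cenp genes (0.91). Cenpt, Zwint and Cenpb were not called.

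**Figure D1:**
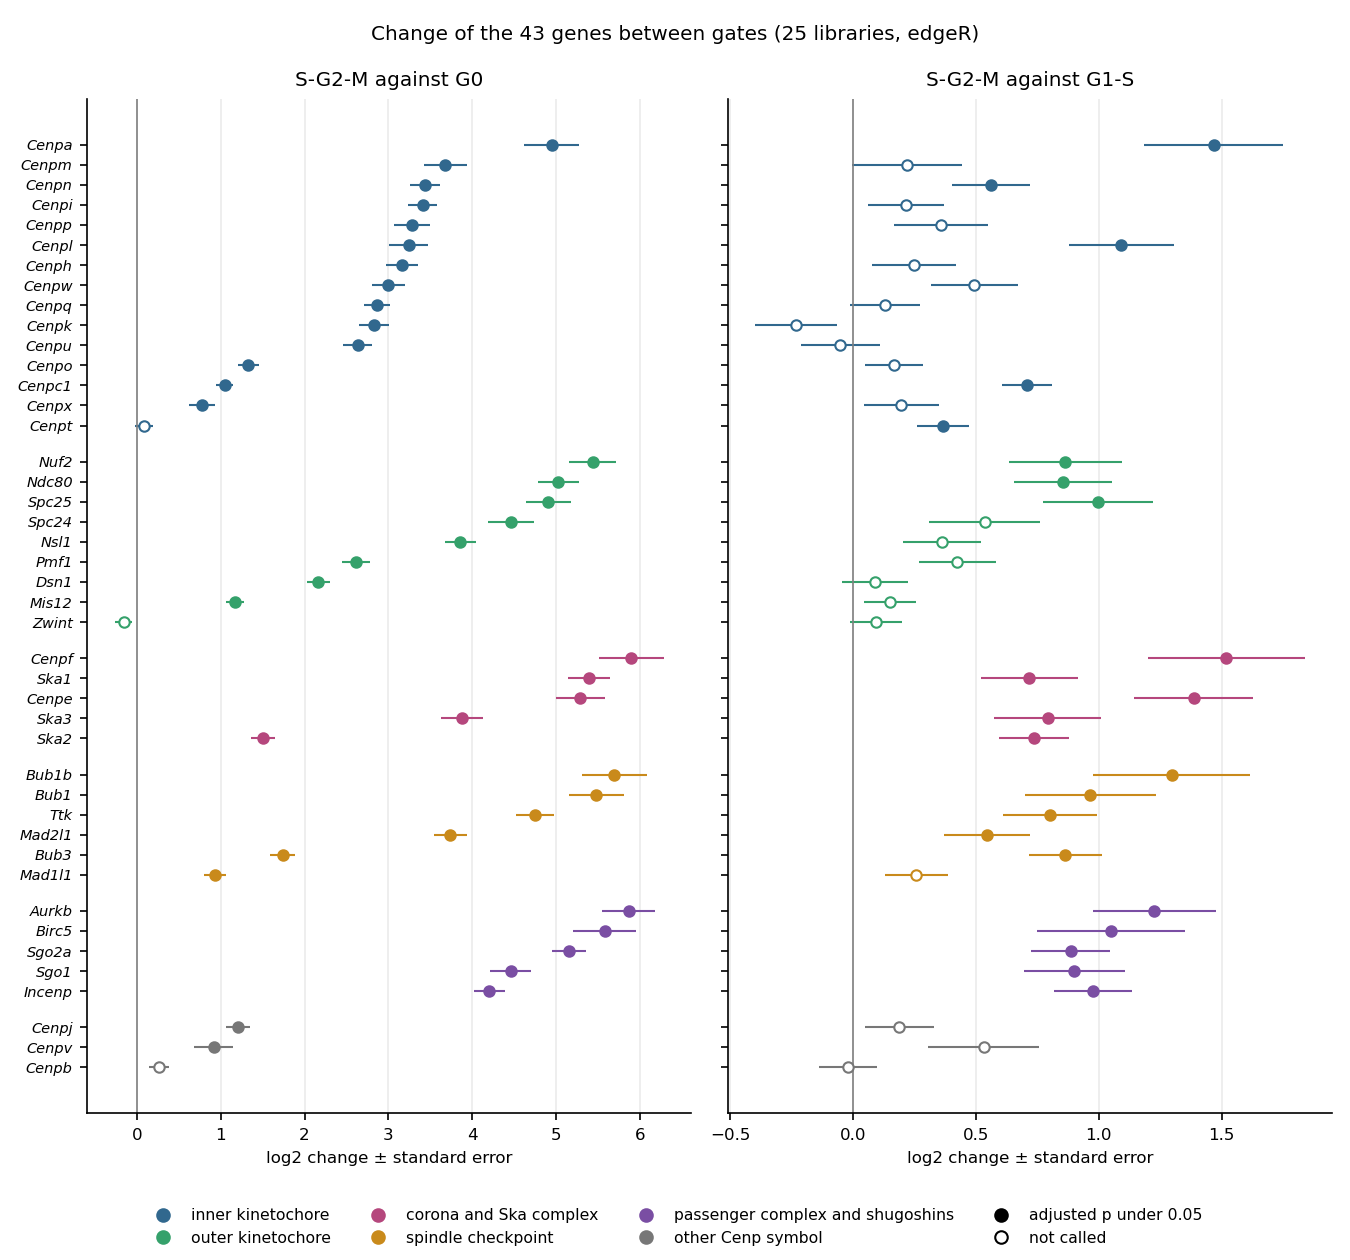
Log2 change with its standard error for the 43 genes, grouped by role, for S-G2-M against G0 (left) and S-G2-M against G1-S (right), from 25 libraries; filled points had an adjusted p under 0.05. On the left 40 of 43 points are filled and run up to 5.90 for Cenpf; on the right 23 are filled, with all 5 corona and Ska genes, all 5 passenger and shugoshin genes and 5 of 15 inner kinetochore genes among them.

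The changes between neighbouring gates are given next. From G0 to G1, 29 of the 43 genes rose and 2 fell (Cenpt and Zwint), against 18.2% of all genes that were higher and 18.1% lower, and the median log2 change was 0.82. In preparations 5 and 8 alone 23 rose and 6 fell, and in the WT-titled ones alone 31 rose and 2 fell. Shares over all genes are not given for these subsets. From G1 to G1-S, 39 rose and 0 fell, against 11.7% higher and 7.18% lower, and the median was 2.01; Cenpt, Cenpx, Cenpb and Cenpv were not called. That background depends on the scaling: 62.0% of the called genes were higher with TMM factors, 51.9% with RLE size factors, 50.1% without Gm26917 and Gm42418 and 50.5% with DESeq2. From G1-S to S-G2-M, 23 rose and 0 fell, against 7.28% higher and 10.1% lower, and the median was 0.55. Markers of other cells were higher in G1-S than in S-G2-M: the sum of 5 cardiac markers was 278 to 928.5 CPM against 11.9 to 81.7 CPM, and that of 5 macrophage markers 76.0 to 281 CPM against 6.6 to 13.1 CPM. The 6 hepatocyte markers summed to 20, 27.3, 117, 2065 and 1548 CPM in G1-S and 22.5, 19.3, 33, 24.8 and 33.6 CPM in S-G2-M, and the part of these cells in the change was not tested. For the 31 genes with a log2 change of at least 2 between G0 and S-G2-M, the median share of that change was 27.6% from G0 to G1, 60.0% from G1 to G1-S and 16.5% from G1-S to S-G2-M.

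Among the sorted gates, levels by the mean of 5 libraries were highest in S-G2-M for 39 of the 43 genes. They were highest in G1-S for Cenpk, Cenpu and Cenpb, and in G0 for Zwint. Unsorted cells were left out of this ranking. In all 5 preparations S-G2-M was the highest gate for 32 genes. These were all 6 checkpoint genes, all 5 corona and Ska genes and all 5 passenger and shugoshin genes. The rest were 7 of 9 outer kinetochore genes, 8 of 15 inner kinetochore genes and 1 of the remaining 3. The same counts over all genes tested are not given here, so 39 and 32 cannot be set against a background. As a description of likeness, the log2 level of each gene was correlated over the 20 sorted libraries with the median of the other members. Pearson's r was above 0.8 for 39 genes, with 0.997 for Nuf2, 0.996 for Bub1 and 0.995 for Ska1 at the top. It was 0.137 for Zwint, 0.171 for Cenpt, 0.583 for Cenpv and 0.621 for Cenpb. The points share gates and preparations, and r follows the order of the gates.

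Inner kinetochore genes rose in 14 of 15 cases from G0 to S-G2-M. Cenpa (chr5:30666777-30674830 on GRCm38), the centromeric histone itself, changed most. It read 5.27, 7.46, 8.45, 5.78 and 6.44 CPM in G0 and 17.5, 26.1, 21.8, 9.18 and 10.4 CPM in G1. In G1-S it read 53.1, 50.7, 48.5, 107 and 112 CPM and in S-G2-M 182, 171, 162, 259 and 252 CPM. No gate overlapped the next. The mean went from 6.68 ± 1.28 CPM (SD, n = 5) in G0 to 205 ± 46.7 CPM (SD, n = 5) in S-G2-M, a 30.8-fold difference (log2 change 4.94 ± 0.33, adjusted p = 1.89e-11). The last step, from G1-S to S-G2-M, was still 2.76-fold (log2 change 1.47 ± 0.28, adjusted p = 0.00109), higher in 5 of 5 preparations.

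In the fit of all 25 libraries, that last step was not called for most of the CCAN. From G1-S to S-G2-M, 5 of 15 inner kinetochore genes rose: Cenpa, Cenpl (1.09 ± 0.21), Cenpc1 (0.71 ± 0.10), Cenpn (0.56 ± 0.16) and Cenpt (0.36 ± 0.11), given as log2 changes. Cenpn binds CENP-A nucleosomes together with Cenpl, and Cenpc1 links them to the Mis12 complex. The other 10, Cenph, Cenpi, Cenpk, Cenpm, Cenpo, Cenpp, Cenpq, Cenpu, Cenpw and Cenpx, had log2 changes between -0.23 for Cenpk and 0.49 for Cenpw. For the subunits of the Cenph-Cenpi-Cenpk-Cenpm complex these were 0.25 ± 0.17, 0.22 ± 0.15, -0.23 ± 0.17 and 0.22 ± 0.23. For the Cenpo, Cenpp, Cenpq and Cenpu subunits of another CCAN complex they were 0.17 ± 0.12, 0.36 ± 0.19, 0.13 ± 0.14 and -0.052 ± 0.16. In the step before, 13 of 15 inner kinetochore genes rose from G1 to G1-S, with 2.44 for Cenpi, 1.99 for Cenpq and 1.93 for Cenpu. A missed threshold does not show that levels were equal in both gates.

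Within the last step, preparations differed in direction for some CCAN genes. Cenpk was lower in S-G2-M than in G1-S in 4 of 5 preparations and Cenpu in 3 of 5, with ratios of 0.661 and 0.764 in WT1 against 1.09 and 1.17 in preparation 5. For Cenpo the ratio was 0.903 in WT1 and 1.26 and 1.38 in preparations 5 and 8. For Cenpq it was 1.02, 1.05 and 1.05 in the same preparations. Exons on the other strand cover 26.7% of the exon length of Cenpu, 22.5% of that of Cenpo and 12.6% of that of Cenpp. Since the strand setting of the counting is not given in the sources used here, reads from those neighbours cannot be told apart from the genes' own.

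Cenpt (chr8:105844673-105853278), which recruits the Ndc80 complex to the CCAN beside Cenpw, was the 1 inner kinetochore gene that fell from G0 to G1. It read 38.6, 36.5, 30.1, 32 and 36.3 CPM in G0, 29.9, 25.4, 24.5, 24.7 and 23.2 CPM in G1 and 27.6, 27.8, 24.7, 30.6 and 33.2 CPM in G1-S. S-G2-M read 32, 32.2, 30.6, 46.9 and 45 CPM, with preparations 5 and 8 above every other library. Cenpt fell from G0 to G1 (log2 change -0.43 ± 0.11, adjusted p = 0.00231), in 5 of 5 preparations. Over the whole range from G0 to S-G2-M its difference was not called (log2 change 0.090 ± 0.11, adjusted p = 0.498), and S-G2-M was higher in 3 of 5 preparations. Its histone-fold partner Cenpw rose over the same range (log2 change 3.0 ± 0.20, adjusted p = 9.35e-12).

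Outer kinetochore genes rose from G0 to S-G2-M in 8 of 9 cases. Nuf2 (chr1:169497934-169531464), a subunit of the microtubule-binding Ndc80 complex, changed most. Its G0 libraries read 2.55, 4.36, 6.17, 3.51 and 3.17 CPM and its G1 libraries 10.3, 13.6, 17.2, 5.41 and 4.3 CPM, which overlap. G1-S libraries read 102, 81, 86.1, 91.5 and 82.3 CPM and S-G2-M libraries 164, 169, 173, 163 and 145 CPM, with no overlap between these gates or with G1. Between G0 (3.95 ± 1.4 CPM (SD, n = 5)) and S-G2-M (163 ± 10.8 CPM (SD, n = 5)) the difference was 43.2-fold (log2 change 5.43 ± 0.28, adjusted p = 3.81e-13).

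The 4 subunits of the Ndc80 complex rose further than the 4 of the Mis12 complex. From G0 to S-G2-M the log2 changes were 5.02 ± 0.24 for Ndc80, 5.43 for Nuf2, 4.91 ± 0.27 for Spc25 and 4.46 ± 0.27 for Spc24. For the Mis12 complex, which bridges the CCAN and the Ndc80 complex, they were 3.86 ± 0.18 for Nsl1, 2.61 ± 0.17 for Pmf1, 2.17 ± 0.14 for Dsn1 and 1.17 ± 0.11 for Mis12. All 8 values passed the test; the difference between the complexes was not itself tested. From G1-S to S-G2-M, Ndc80 (0.85 ± 0.20), Nuf2 (0.86 ± 0.23) and Spc25 (1.0 ± 0.22) rose, while Spc24 (log2 change 0.54 ± 0.23, adjusted p = 0.108) and the Mis12 complex subunits, with 0.089 to 0.42, were not called.

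Zwint (chr10:72654845-72674964) binds Knl1 at the outer kinetochore and has also been described as a partner of the synaptic protein SNAP25. Among the sorted gates, its level was highest in G0 in all 5 preparations. It read 237, 263, 245, 153 and 169 CPM in G0 and 119, 173, 138, 88.8 and 97.7 CPM in G1. In G1-S it read 192, 188, 222, 133 and 156 CPM and in S-G2-M 214, 231, 228, 142 and 144 CPM. Within each gate the WT-titled libraries were all above the E13.5 pair, and the gates overlapped. From G0 to G1 Zwint fell in 5 of 5 preparations (log2 change -0.79 ± 0.11, adjusted p = 3.28e-06), and from G1 to G1-S it rose in 5 of 5 (log2 change 0.54 ± 0.11, adjusted p = 0.000791). S-G2-M was below G0 in 5 of 5 preparations without passing the test (log2 change -0.16 ± 0.10, adjusted p = 0.22). The 8 neuronal markers summed to 8306, 6924, 7610.1, 4684 and 4898 CPM in G0, 2054, 1504, 1231, 783 and 798 CPM in G1 and 238, 194, 189.5, 437 and 522 CPM in S-G2-M, and their part in the Zwint level was not tested.

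All 5 corona and Ska genes rose from G0 to S-G2-M and again from G1-S to S-G2-M. Cenpf (chr1:189640606-189688086), a large protein of the outermost corona, had the largest change of the 43 genes. It read 6.56, 15.8, 17.1, 10.1 and 12 CPM in G0 and 28.4, 27.5, 48.5, 15.3 and 13.2 CPM in G1. The values were 175, 211, 125, 339 and 395 CPM in G1-S and 724, 644, 669.5, 806 and 770.2 CPM in S-G2-M. The lowest S-G2-M library lay well above the highest G1-S library. S-G2-M (723 ± 67.5 CPM (SD, n = 5)) exceeded G0 (12.3 ± 4.28 CPM (SD, n = 5)) by 59.5-fold (log2 change 5.90 ± 0.39, adjusted p = 1.59e-11) and G1-S by 2.86-fold (log2 change 1.52 ± 0.32, adjusted p = 0.00225). The ratio of S-G2-M to G1-S was 4.13, 3.06 and 5.37 in the WT-titled preparations and 2.38 and 1.95 in 5 and 8. Cenpe, the kinesin that carries chromosomes to the spindle equator, had log2 changes of 5.29 ± 0.29 over G0 and 1.39 ± 0.24 over G1-S.

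The Ska complex, which follows the ends of shortening microtubules, was uneven among its 3 subunits. Ska1 (5.39 ± 0.25) and Ska3 (3.87 ± 0.25) rose from G0 to S-G2-M by more than Ska2 (1.51 ± 0.14), on the log2 scale. Ska2 (chr11:87109234-87124635) already read 33.4, 31.8, 41.7, 43.6 and 43.2 CPM in G0 and 37.8, 52.7, 42.9, 37.4 and 44.5 CPM in G1, where its gates overlapped. It reached 54.4, 58.5, 61.9, 79.7 and 75.6 CPM in G1-S and 94.3, 99.3, 92.4, 138 and 126 CPM in S-G2-M, without overlap. Of its change, 48.9% fell in the step from G1-S to S-G2-M, against 13.3% for Ska1 and 20.5% for Ska3. Exons on the other strand cover 10.1% of its exon length.

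**Figure D2:**
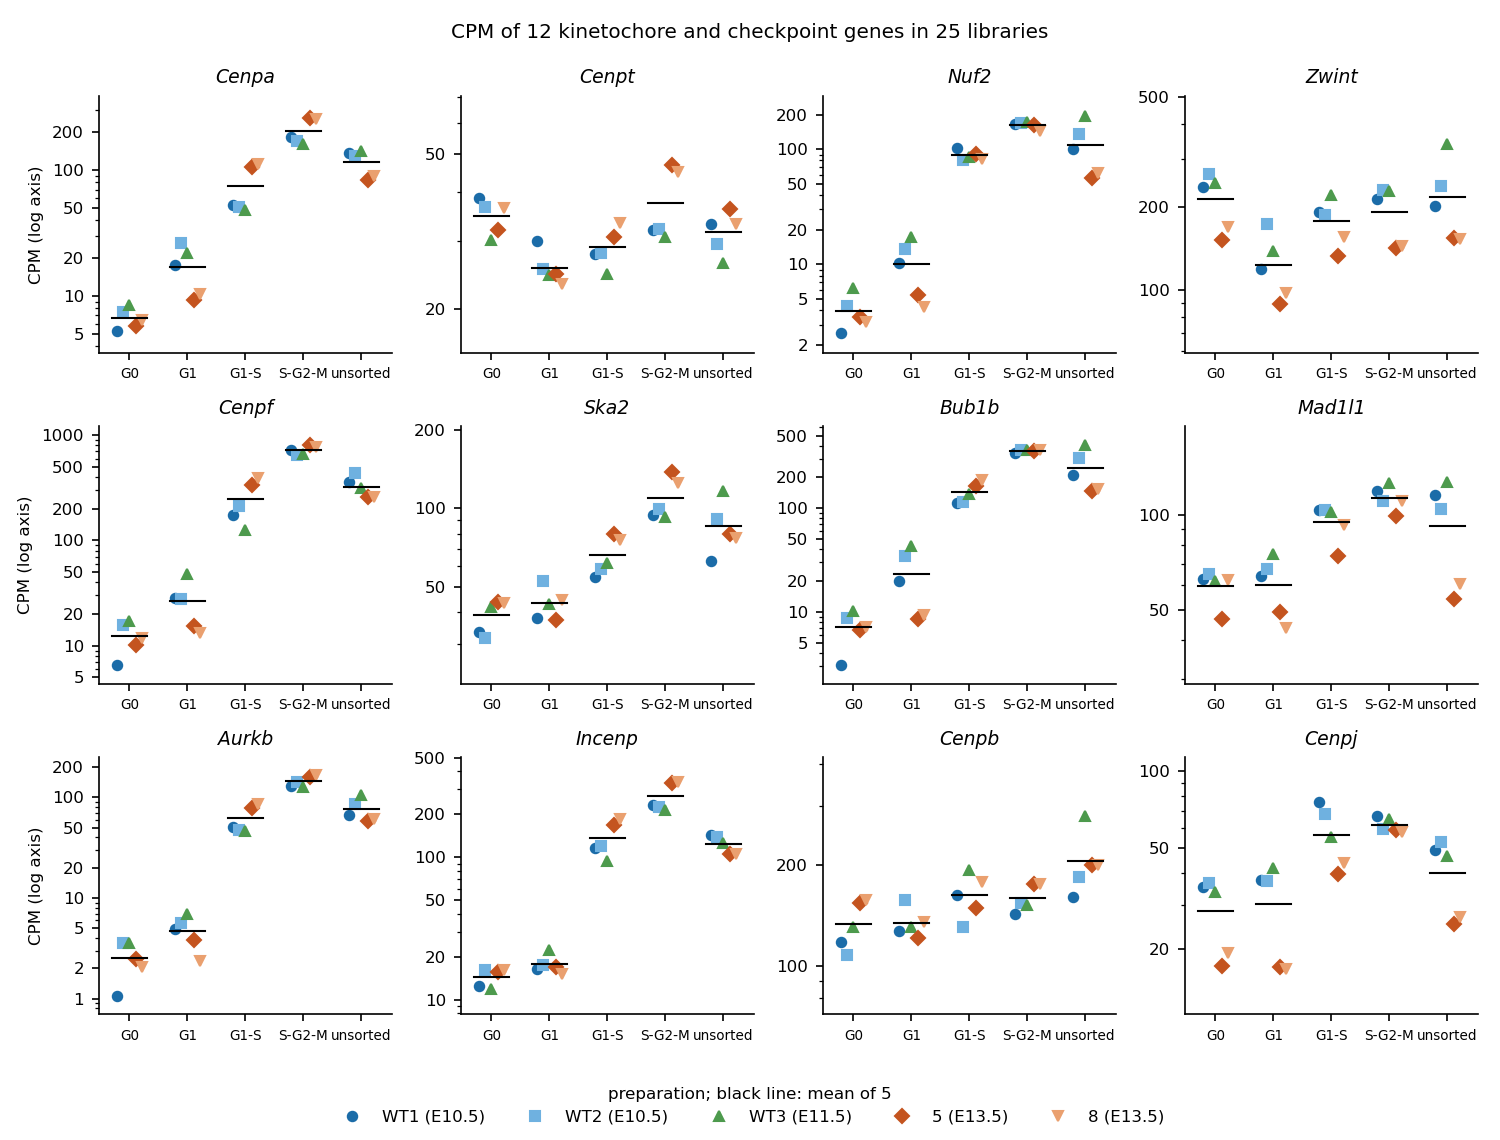
CPM on a log axis of the 12 genes given in every library, by fraction; each point is a preparation and the black line is the mean of 5. Cenpa, Nuf2, Cenpf, Bub1b, Aurkb and Incenp climb from G0 to S-G2-M. Among the sorted gates, Zwint is highest in G0 in each preparation, and Cenpt dips in G1. E13.5 points of Zwint and Cenpj lie below the E10.5 points in G0.

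All 6 checkpoint genes rose from G0 to S-G2-M. Bub1b (chr2:118598211-118641591) encodes BubR1, part of the complex that inhibits the anaphase-promoting complex. Its libraries read 3.06, 8.77, 10.2, 6.62 and 7.12 CPM in G0 and 19.9, 34.4, 43, 8.55 and 9.43 CPM in G1. They read 111, 115, 138, 163 and 187 CPM in G1-S and 339, 362, 364, 355 and 366 CPM in S-G2-M. Preparations 5 and 8 were the lowest in G1 and the highest in G1-S, and in S-G2-M all 5 lay close together. The mean rose from 7.16 ± 2.7 CPM (SD, n = 5) to 357 ± 11.2 CPM (SD, n = 5), or 51.7-fold (log2 change 5.69 ± 0.39, adjusted p = 3.26e-11). Bub1 (5.48 ± 0.33), Ttk (4.75 ± 0.23), the Mps1 kinase that starts checkpoint signalling, and Mad2l1 (3.74 ± 0.20) are given as log2 changes and also rose.

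Bub3 and Mad1l1 changed far less, from higher levels in G0. Bub3, the shared partner of Bub1 and BubR1, had a log2 change of 1.74 ± 0.15 and 63.8 to 95.1 CPM in G0. Mad1l1 (chr5:140008689-140321552), the receptor that loads Mad2 at kinetochores, read 62.4, 65.1, 61.5, 46.6 and 61.9 CPM in G0 and 63.8, 67.2, 75.4, 49 and 43.6 CPM in G1. G1-S read 104, 104, 102, 74.1 and 92.8 CPM and S-G2-M 119, 111, 127, 99 and 111 CPM. G1-S overlapped G1 by 1 library at E13.5, and S-G2-M did not overlap G0. From G0 to S-G2-M Mad1l1 rose 1.91-fold (log2 change 0.93 ± 0.13, adjusted p = 1.62e-06), and it was the only checkpoint gene not called from G1-S to S-G2-M (log2 change 0.26 ± 0.13, adjusted p = 0.184).

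The passenger complex and the shugoshins, which guard cohesion at centromeres, rose at S-G2-M over G0 and over G1-S in 5 of 5 cases. Aurkb (chr11:69045647-69051664), the Aurora B kinase, read 1.05, 3.53, 3.53, 2.47 and 2.08 CPM in G0 and 4.96, 5.65, 6.9, 3.87 and 2.35 CPM in G1. It then read 50.3, 47.3, 46.7, 79 and 86.1 CPM in G1-S and 129, 142, 126, 160.4 and 167 CPM in S-G2-M. From G1 to G1-S every library of the later gate exceeded every library of the earlier, and this step was the largest of all 43 genes (log2 change 3.71 ± 0.28, adjusted p = 1.19e-09). Over the whole range the fold was 58.3 (log2 change 5.87 ± 0.32, adjusted p = 6.31e-13), on means of 2.53 ± 1.05 CPM (SD, n = 5) and 145 ± 18.1 CPM (SD, n = 5).

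Incenp (chr19:9872296-9899551), the scaffold that activates Aurora B, had the smallest change of this group. Its libraries read 12.5, 16.1, 11.8, 15.7 and 16.1 CPM in G0 and 16.5, 17.4, 22.3, 16.9 and 15.2 CPM in G1, which overlap. They read 115, 120.2, 94, 167 and 184 CPM in G1-S and 233, 224, 215, 329 and 336 CPM in S-G2-M, with the E13.5 pair highest in both gates. The G0 to G1 step was not called (log2 change 0.31 ± 0.17, adjusted p = 0.156), and the fold from G0 to S-G2-M was 18.4 (log2 change 4.20 ± 0.18, adjusted p = 4.24e-14). Birc5, the survivin subunit, was the gene with the largest log2 change from G0 to G1 (2.19 ± 0.35), and it reached 5.58 ± 0.38 in S-G2-M over G0. Sgo1 (4.46 ± 0.24) and Sgo2a (5.15 ± 0.20) rose likewise.

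Among the 3 remaining Cenp genes, Cenpb (chr2:131175182-131180067), which binds a repeat box in centromeric DNA, differed little between gates. It read 118, 107, 131, 154 and 156 CPM in G0, 127, 157, 130.2, 121 and 135 CPM in G1, 163, 130.2, 193, 148 and 177 CPM in G1-S and 143, 154, 152, 175 and 175 CPM in S-G2-M. The gates overlapped, and S-G2-M exceeded G0 in 5 of 5 preparations without being called (log2 change 0.27 ± 0.12, adjusted p = 0.0603). Cenpj (chr14:56526761-56575425), a centriole assembly protein, read 35, 36.5, 33.5, 17.3 and 19.3 CPM in G0, 37.5, 37.3, 41.8, 17.1 and 16.7 CPM in G1, 75.8, 67.9, 55.4, 39.6 and 43.7 CPM in G1-S and 66.8, 59.1, 65, 58.9 and 57.6 CPM in S-G2-M. In G0, G1 and G1-S its E13.5 libraries lay below all WT-titled ones. From G0 to S-G2-M Cenpj rose 2.31-fold (log2 change 1.21 ± 0.14, adjusted p = 1.36e-07), and Cenpv rose by 0.92 ± 0.23 on the log2 scale.

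Promoter sequences are shown because genes that rose again from G1-S to S-G2-M differed from those that did not in how often a CHR match was found, a grouping made after the values were seen. RefSeq windows on GRCm38.p6, from 250 bases before to 50 bases after a start site, were found for 38 of the 43 genes (44 windows, some of which overlap where a gene has several start sites). Spc24, Nsl1, Ska1, Aurkb and Incenp had no entry in the table used here. Both strands were searched for the cell cycle homology region (CHR), spelled TTTGAA or as the variant TTTAAA, and for the box named by its letters CCAAT. The E2F-like words searched were GCGGGAA, then GGCGGGA, which can overlap the former, and lastly the word GCGCGAA. The lines below give 180 bases before the start site and 30 from it, 5′ to 3′ on the gene's strand, with matches on either strand in capitals. The lines are Cenpf (chr1:189688057-189688266, minus strand), Cenpc1 (chr5:86065554-86065763, minus strand), Spc25 (chr2:69206184-69206393, minus strand) and Ttk (chr9:83834509-83834718, plus strand), which rose from G1-S to S-G2-M. Then come Mis12 (chr11:71019431-71019640, plus strand) and Cenph (chr13:100775870-100776079, minus strand), which were not called there. The last is Zwint (chr10:72654666-72654875, plus strand), which was highest in G0 among the sorted gates.
Cenpf: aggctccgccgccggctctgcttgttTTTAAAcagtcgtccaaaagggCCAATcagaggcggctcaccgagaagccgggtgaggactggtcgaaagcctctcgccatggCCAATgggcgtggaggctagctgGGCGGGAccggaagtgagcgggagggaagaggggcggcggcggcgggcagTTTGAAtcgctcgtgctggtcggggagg
Cenpc1: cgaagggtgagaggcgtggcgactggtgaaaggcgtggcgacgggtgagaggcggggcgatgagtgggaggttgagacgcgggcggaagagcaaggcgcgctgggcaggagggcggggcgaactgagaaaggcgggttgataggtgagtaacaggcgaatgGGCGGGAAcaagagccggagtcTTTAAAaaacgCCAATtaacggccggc
Spc25: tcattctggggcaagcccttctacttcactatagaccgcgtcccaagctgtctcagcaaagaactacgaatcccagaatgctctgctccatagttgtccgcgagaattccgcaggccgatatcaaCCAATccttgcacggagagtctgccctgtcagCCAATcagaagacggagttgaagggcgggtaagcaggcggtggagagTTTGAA
Ttk: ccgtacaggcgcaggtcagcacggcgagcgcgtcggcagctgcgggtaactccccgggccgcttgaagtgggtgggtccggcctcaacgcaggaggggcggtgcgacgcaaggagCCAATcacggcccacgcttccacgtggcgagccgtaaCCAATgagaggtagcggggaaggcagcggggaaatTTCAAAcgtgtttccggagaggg
Mis12: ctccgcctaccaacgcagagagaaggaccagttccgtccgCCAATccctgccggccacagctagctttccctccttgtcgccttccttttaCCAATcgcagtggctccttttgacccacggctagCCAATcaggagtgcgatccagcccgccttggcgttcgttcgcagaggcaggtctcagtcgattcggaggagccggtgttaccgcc
Cenph: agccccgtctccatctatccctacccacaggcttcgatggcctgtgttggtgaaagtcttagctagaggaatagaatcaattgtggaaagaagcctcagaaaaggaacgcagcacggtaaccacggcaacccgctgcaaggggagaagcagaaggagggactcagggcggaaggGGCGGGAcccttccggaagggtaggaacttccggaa
Zwint: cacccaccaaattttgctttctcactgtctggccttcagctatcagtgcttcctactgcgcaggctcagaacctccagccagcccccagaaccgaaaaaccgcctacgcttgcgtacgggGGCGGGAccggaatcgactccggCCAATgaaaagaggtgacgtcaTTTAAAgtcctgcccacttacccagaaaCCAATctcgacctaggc

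In the lines for Cenpf, Cenpc1, Spc25 and Ttk a CHR match (on either strand) begins within the 30 bases from the start site. Nuf2, Ska2, Bub1, Mad2l1, Sgo1 and Sgo2a also rose in that step and have no CHR match in their windows. Mis12 and Cenph hold no CHR match in their windows. In the lines shown, Mis12 holds 3 CCAAT boxes and Cenph an E2F-like word. Beyond these lines, the window of Mis12 holds a further CCAAT box, and that of Cenph a CCAAT box and further E2F-like words. Zwint holds a CHR match, CCAAT boxes and an E2F-like word, and its level was highest in G0 among the sorted gates.

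Over all windows, a CHR match was in 18 of 44 (40.9%) of the kinetochore and checkpoint genes and in 27.6% of the 32851 windows in the table. By gene, it was in 14 of the 20 genes with a window that rose from G1-S to S-G2-M and in 3 of the 18 that were not called (Cenpw, Pmf1 and Zwint). A CCAAT box was in 68.2% of the members' windows against 37.4% of all windows, and an E2F-like word in 47.7% against 14.4%. These were in both sets of genes: CCAAT in 14 of 20 and 11 of 18, and an E2F-like word in 8 of 20 and 10 of 18. GCGCGAA was in none of the 44 windows and in 1.6% of all. A match is a run of letters and not a site shown to be bound, and these shares carry no test.

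Levels were set side by side between genes per kilobase of the principal transcript, in S-G2-M. Cenpa (140.0 ± 31.9 CPM per kb, SD, n = 5), Birc5 (139.7 ± 29.6) and Bub3 (122 ± 10.5) were the highest, and Cenpo (8.72 ± 0.91) and Cenpu (9.94 ± 0.84) the lowest. Within the Ndc80 complex the levels were 44.1 ± 1.85 for Ndc80, 67.7 ± 4.5 for Nuf2, 56.4 ± 7.32 for Spc24 and 88.8 ± 5.22 for Spc25. For the Mis12 complex they were 18.4 ± 0.70 for Mis12, 18.9 ± 3.33 for Dsn1, 14.9 ± 0.70 for Nsl1 and 64.9 ± 5.88 for Pmf1. The order depends on the length taken: per kilobase of all annotated exons Bub1b was the highest (83.5 ± 2.61), Cenpa stood at 35 ± 7.97 and Pmf1 at 16.1 ± 1.46, beside 18.4 ± 0.70 for Mis12. The Ndc80 complex stood above the CCAN subunits Cenph (29.6 ± 4.14), Cenpk (26 ± 3.49) and Cenpu by the principal transcript, without a test. This too depends on the length. Per kilobase of all annotated exons, Ndc80 (14.95 ± 0.63) was below Cenph (20.79 ± 2.9), while Nuf2, Spc24 and Spc25 stayed above it.

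Genes around the kinetochore moved with it to differing degrees. From G0 to S-G2-M, 27.5% of all genes tested were higher and 26.6% lower. Of 23 other centromere and kinetochore genes, 17 rose and 3 fell from G0 to S-G2-M (median log2 change 3.15). Knl1, the scaffold of the KMN network (5.11 ± 0.24), and Spag5, a spindle protein (4.89 ± 0.24), rose most. The microtubule-stabilizing genes Clasp1 (-0.56 ± 0.085) and Clasp2 (-0.57 ± 0.064) fell, as did Borcs8 (-0.36 ± 0.14), known for positioning lysosomes rather than for a place at the centromere. Of 21 genes of the anaphase-promoting complex and its targets, 18 rose and 0 fell with a median of 0.68. The ubiquitin-conjugating enzyme Ube2c (5.68 ± 0.35) and separase, Espl1 (5.45 ± 0.27), led them, while the core subunits Anapc2 (-0.025 ± 0.076, adjusted p = 0.807) and Anapc4 (-0.069 ± 0.10, adjusted p = 0.59) were not called.

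Of 13 cohesin genes, 10 rose and 2 fell from G0 to S-G2-M, with a median of 0.77. The shares over all genes tested, for this list and the next, were 27.5% higher and 26.6% lower. The S-phase acetyltransferase Esco2 (5.44 ± 0.23) and sororin, Cdca5 (4.78 ± 0.22), rose most, and the loader Mau2 (-0.36 ± 0.069) and Esco1 (-0.68 ± 0.11) fell. Among 11 regulators of the DREAM and B-Myb-FoxM1 programme, 9 rose and 0 fell, with a median of 1.03. Foxm1 (4.99 ± 0.23) and Mybl2, which encodes B-Myb (2.93 ± 0.20), rose most. Rbl2, the pocket protein of resting cells (-0.23 ± 0.15, adjusted p = 0.207), and the MuvB subunit Lin37 (0.12 ± 0.14, adjusted p = 0.492) were not called. All these values are log2 changes with standard errors, and the lists were chosen with earlier results of these data known.

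E13.5 was compared with E10.5 within single fractions to ask whether levels moved with developmental time. Each day had n = 2 preparations. The spread was estimated over all 25 libraries without a term for the preparation. Fractions of 1 preparation, which can deviate together, were treated as independent. The standard errors and p-values of the day comparisons therefore do not measure the spread between embryos within 1 fraction. In S-G2-M the median log2 change of the 43 genes was 0.06, beside -0.07 over all genes. There, 8 of 43 rose and 2 fell, against 18.9% of all genes that were higher and 24.1% lower. Those that rose were Cenpa (0.54 ± 0.15), Cenpl (0.55 ± 0.18), Cenpt (0.52 ± 0.12), Dsn1 (0.41 ± 0.15), Ska2 (0.45 ± 0.16), Ska3 (0.41 ± 0.14), Incenp (0.54 ± 0.11) and Sgo2a (2.01 ± 0.15), and those that fell were Cenpq (-0.53 ± 0.17) and Zwint (-0.64 ± 0.15). No checkpoint gene was called. The count of 10 became 1 without preparation 8, 2 without 5, 16 without WT2 and 20 without WT1.

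In G0, 4 of 43 genes rose and 7 fell from E10.5 to E13.5, against 20.4% of all genes that were higher and 22.5% lower, with a median log2 change of -0.05. Cenpn, Cenpb, Cenpv and Sgo2a rose, and Cenpo, Cenpw, Zwint, Ska3, Bub3, Sgo1 and Cenpj fell. Cenpj changed from 35 and 36.5 CPM to 17.3 and 19.3 CPM (log2 change -0.97 ± 0.11, adjusted p = 3.07e-06), and Cenpv from 7.48 and 6.63 CPM to 17.9 and 21.9 CPM (log2 change 1.49 ± 0.23, adjusted p = 5.45e-05). The balance of directions rests on single preparations: 16 rose and 6 fell without WT2, 5 rose and 18 fell without WT1, and 5 rose and 5 fell without WT3. With no low-count filter 6 rose and 5 fell, and the total was 3 without preparation 5 and 4 without 8. WT1 was the lowest G0 library for Aurkb (1.05 CPM against 3.53 in WT2) and for Bub1b (3.06 against 8.77).

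Sgo2a had the largest change between the days in each of these fractions and in unsorted cells. It read 0.748, 1.31, 2.01, 4.89 and 4.21 CPM in G0, 2.84, 2.8, 3.64, 7.01 and 5.62 CPM in G1 and 22.4, 22.2, 25.6, 96.4 and 100.3 CPM in G1-S. S-G2-M read 44, 43.3, 46.6, 184 and 167 CPM and unsorted cells 22, 27.1, 25.6, 61.6 and 66.8 CPM. In each fraction preparations 5 and 8 exceeded all 3 WT-titled ones. The fold of E13.5 over E10.5 was 4.02 in S-G2-M (log2 change 2.01 ± 0.15, adjusted p = 3.09e-08), 4.52 in G0 (log2 change 2.17 ± 0.21, adjusted p = 4.8e-07) and 2.61 in unsorted cells (log2 change 1.39 ± 0.15, adjusted p = 1.32e-06). Exons on the other strand cover 35% of its exon length, and reads from them cannot be told apart from its own. Its paralog Sgo2b, with which it could share reads, had 0.0 to 2.29 CPM over the 25 libraries. Sgo2a was singled out after its values were seen.

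**Figure D3:**
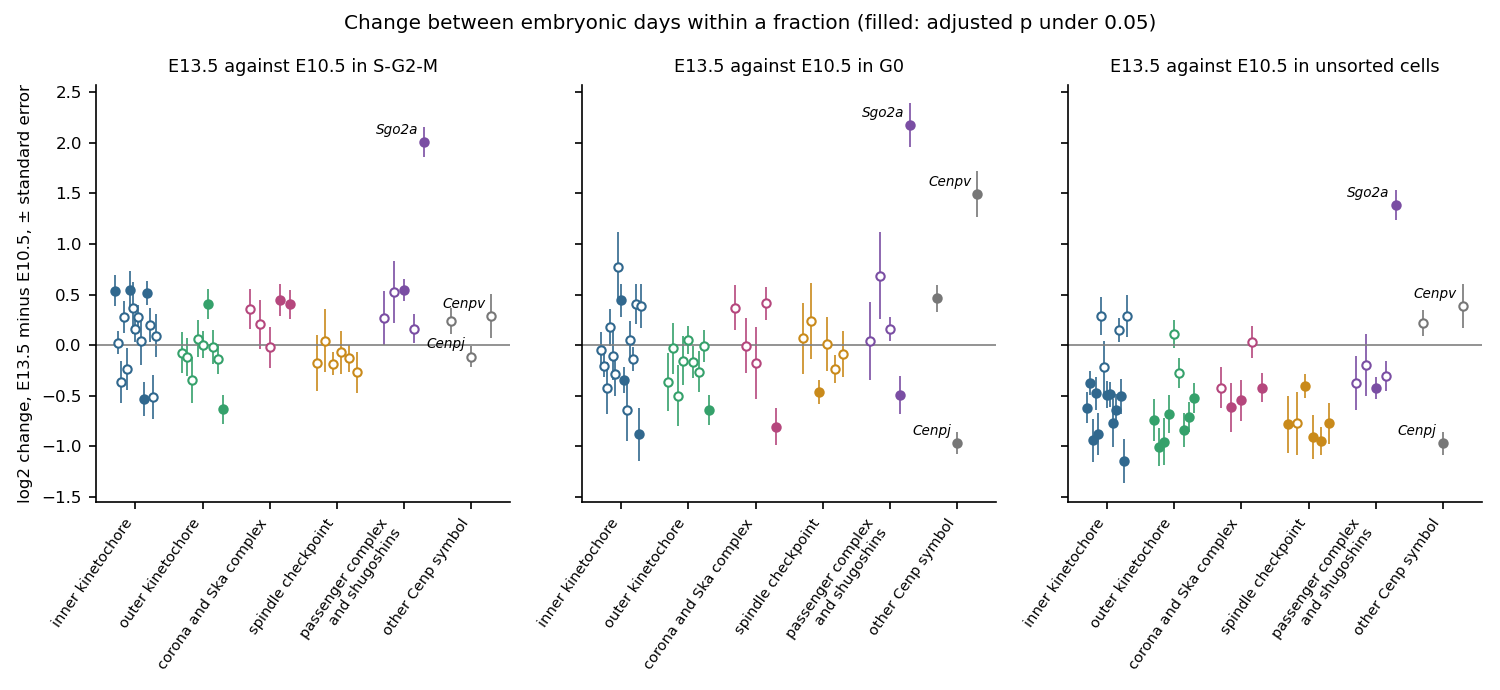
Log2 change of E13.5 against E10.5 with its standard error for the 43 genes by role, within S-G2-M, G0 and unsorted cells; filled points had an adjusted p under 0.05. In unsorted cells 28 filled points lie below 0 and 1 above; in S-G2-M 10 points are filled, and Sgo2a lies above all others in the 3 panels.

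Unsorted cells gave another picture. There 28 of 43 genes fell and 1, Sgo2a, rose from E10.5 to E13.5, against 28.7% of all genes that were lower and 25.2% higher, and the median log2 change was -0.50, beside -0.08 over all genes. The outer kinetochore (7 of 9 fell, median -0.71), the checkpoint (5 of 6, -0.78), the inner kinetochore (11 of 15, -0.49) and the corona and Ska genes (3 of 5, -0.42) were lower. Of 5 passenger and shugoshin genes, 1 fell, 1 rose and 3 were not called, with a median of -0.30. Of the 3 remaining Cenp genes 1 fell, with a median of 0.22. Nuf2 read 101, 136, 194, 55.7 and 62.2 CPM in unsorted cells (log2 change -1.01 ± 0.19, adjusted p = 0.000314), and Mad1l1 116, 104, 127, 54.1 and 60.2 CPM (log2 change -0.94 ± 0.14, adjusted p = 2.94e-05). Cenpw, with -1.14 ± 0.22, fell most. The count of 29 became 11 without preparation 5 and 12 without 8. It was 33 with RLE size factors, with DESeq2 and without Gm26917 and Gm42418. Leaving out Gm26917 and Gm42418 moved the median log2 change of all genes here by -0.104. The 6 erythroid markers summed to 22424, 11323, 22598, 30382 and 35162 CPM in unsorted cells. Markers of some other cells were also higher at E13.5 there: 6 hepatocyte markers summed to 150.5, 78.7, 122, 1445 and 1073 CPM and 5 macrophage markers to 60.9, 53, 68.4, 190.5 and 172 CPM. The 8 neuronal markers summed to 1442, 916.5, 1012, 1670 and 1789 CPM, likewise higher. Sums of 5 cardiac markers (171, 347, 140, 298 and 263 CPM) and 6 neural progenitor markers (1316, 1622, 1940, 1358 and 1389 CPM) overlapped between E10.5 and E13.5. Of 4 gate and proliferation markers, Mki67 read 1018, 877, 511, 1334 and 1387 CPM there, higher in both E13.5 preparations. Cdt1 and Cdkn1c were also higher, whereas Gmnn read 59.2, 84.6, 137, 34.4 and 34.8 CPM, lower in both. Mki67 was also higher at E13.5 within S-G2-M (1249, 1116, 1173, 2306 and 2297 CPM). The part of these in the lower levels was not tested.

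Whether the day change differed between S-G2-M and unsorted cells was tested directly, a comparison added after the values were seen. It was higher in S-G2-M for 7 of 43 genes and lower for 0, against 3.92% and 2.93% of all genes; of all called genes 57.2% were higher with TMM factors and 72.9% with RLE size factors. The 7 were Cenpa (log2 change 1.16 ± 0.22, adjusted p = 0.00549), Incenp (log2 change 0.96 ± 0.15, adjusted p = 0.00206), Cenpj (0.86 ± 0.15), Ska3 (0.83 ± 0.20), Nsl1 (0.82 ± 0.23), Mad1l1 (0.81 ± 0.19) and Cenpo (0.77 ± 0.17). The median difference of the 43 genes was 0.64. The count of 7 became 0 without preparation 5 or 8, 14 without WT3, 23 without WT2 and 33 without WT1. It was 15 with RLE size factors, which moved the median of all genes by 0.126, 12 without Gm26917 and Gm42418, and 17 with a replicate block for the preparation.

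The level in unsorted cells as a percentage of that in S-G2-M describes the same pattern per preparation. Over the 31 genes with a log2 change of at least 2, its median was 63.3% in WT1, 80.3% in WT2, 94.4% in WT3, 41.7% in preparation 5 and 44.0% in preparation 8. For the other 12 genes the medians were 85.9%, 91.3%, 104.1%, 67.4% and 67.2%. For the 31 genes, G0 cells stood at 4.6%, 7.2%, 8.0%, 4.0% and 4.3%. These genes were picked by their change from G0 to S-G2-M in the same libraries, so a low G0 share follows from the choice. The contrast with the other 12 genes is not independent of that choice either. In WT3 the percentage exceeded 100 for 15 of the 31 genes, as for Ska1 with 68.5%, 81.4%, 145%, 52.2% and 52.5% in the order of preparations. The percentages were 49.1%, 67.2%, 47.2%, 31.8% and 33.7% for Cenpf and 57.6%, 69%, 50.2%, 35.7% and 38% for Cenpe, which have the longest principal transcripts. Mad2l1, the next longest by annotation, had 63.3%, 83.9%, 116%, 49.7% and 55.6%, so not every gene with a long annotated transcript was low. Length is that of the longest transcript annotated as principal, and which transcript was expressed was not tested. Over the 31 genes Spearman's rho between the percentage and the length of the principal transcript was -0.53, -0.49, -0.59, -0.46 and -0.38. This is across genes of the same libraries, which are not independent replicates, and what moves with length was not tested.

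**Figure D4:**
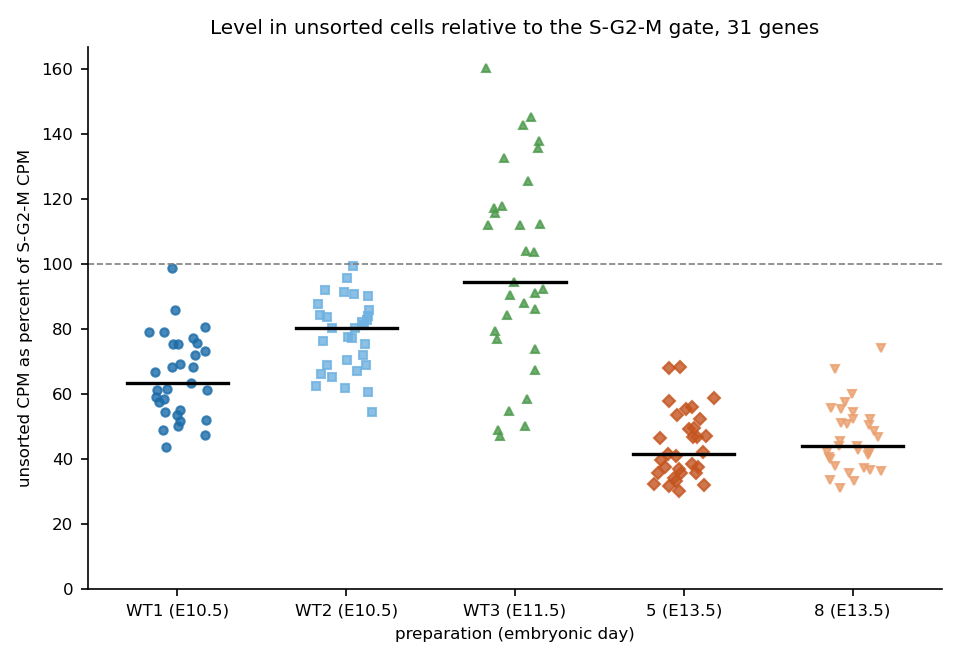
CPM in unsorted cells as a percentage of CPM in S-G2-M of the same preparation for the 31 genes with a log2 change of at least 2 between G0 and S-G2-M; points are genes and the black line is the median. The medians are 63.3%, 80.3% and 94.4% in WT1, WT2 and WT3 and 41.7% and 44.0% in the E13.5 preparations 5 and 8.

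The change from G0 to S-G2-M itself differed between E13.5 and E10.5 for 5 of 43 genes: it was larger at E13.5 for 4 and smaller for 1, against 4.24% and 4.42% of all genes tested. Ska3 (log2 change 1.21 ± 0.23, adjusted p = 0.00266), Cenpj (log2 change 0.85 ± 0.15, adjusted p = 0.00185), Cenpt (log2 change 0.66 ± 0.17, adjusted p = 0.0189) and Cenpo (log2 change 0.62 ± 0.17, adjusted p = 0.0316) had the larger change, and Cenpv (log2 change -1.21 ± 0.31, adjusted p = 0.0219) the smaller. Cenpv read 7.48, 6.63, 7.83, 17.9 and 21.9 CPM in G0 and 21.2, 19.7, 18.4, 23 and 27 CPM in S-G2-M, closer together at E13.5 than at E10.5. The split of 4 and 1 became 5 larger and 7 smaller without WT2 and 17 larger and 1 smaller without WT1, and no gene was called without preparation 5 or 8. For the other 38 genes the difference did not pass the test, which does not show that their change was the same on both days.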

How the data were processed

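RNA-seq of rRNA-depleted RNA was made from 5 preparations of mouse embryos in 5 fractions. The authors deposited read counts per gene for 130 columns, made with STAR 2.5.3 and HTSeq 0.8.0 on mm10, per the submitters' processing notes; annotation and strand setting: not given in the sources used here. Lanes were summed to 25 libraries, with no further filter on reads. Genes were tested with edgeR 4.0.16 (limma 3.58.1, R 4.3.3): filterByExpr with a minimum count of 10 and a minimum total of 15, TMM factors and quasi-likelihood F tests with Benjamini-Hochberg adjustment at 0.05. Gates were compared in a model of fraction and day, and days in a model with a mean for each day and fraction. The scripts were tested on simulated data. DESeq2 1.42.0, other scalings, no low-count filter, single preparations left out and a replicate block were alternatives.

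The genes and the gene lists were chosen with earlier results of these data known. Values in every library are given for the genes with the largest and smallest change from G0 to S-G2-M in each role and for those not called there, 12 in all; any other gene given in every library was chosen after its values were seen. From each pathway list the 2 highest and 2 lowest genes are named, and Borcs8 as the remaining gene that fell. Fractions of 1 preparation share a number in the labels. Over 13051 genes their deviations from the group means correlated, over 10 pairs of fractions per day, with r between 0.147 and 0.725 (E10.5) or between 0.249 and 0.568 (E13.5). Without Xist, Tsix and chromosome Y genes the E13.5 values ran from -0.077 to 0.433. Coordinates are those of GENCODE M21 on GRCm38.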

Additional observations from a re-analysis of the deposited data

Results flagged for a closer look

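In G0, Mad1l1 read 46.575 CPM in preparation 5, far from the other 4 preparations of that gate. It was the only such gap among 60 groups of 5 libraries, of which chance flags about 1 in 20.

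The change from G0 to S-G2-M differed between E13.5 and E10.5, by edgeR's test of the difference, for Cenpo (log2 difference 0.625), Cenpt (0.657), Ska3 (1.212), Cenpj (0.853) and Cenpv (-1.205). The change from E10.5 to E13.5 differed between S-G2-M and unsorted cells, in a comparison added after the values were seen, for Cenpa (1.156), Cenpo (0.766), Nsl1 (0.819), Ska3 (0.826), Mad1l1 (0.813), Incenp (0.965) and Cenpj (0.859). Each day had 2 preparations, and the day and the preparation series cannot be told apart.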

How the results depend on the processing

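With 1 preparation left out, the number of genes called ranged from 26 to 31 for G1 against G0, 37 to 41 for G1-S against G1, 16 to 24 for S-G2-M against G1-S and 40 to 41 for S-G2-M against G0. For E13.5 against E10.5 it ranged from 1 to 20 in S-G2-M, from 3 to 23 in G0 and from 11 to 36 in unsorted cells. For the difference of S-G2-M against G0 between days it ranged from 0 to 18, and was 3 with no low-count filter. For the added difference between S-G2-M and unsorted cells it ranged from 0 to 33, and was 15 with RLE size factors, 18 with no low-count filter, 12 without Gm26917 and Gm42418 and 18 with DESeq2. With the replicate block, which pairs fractions of a preparation, that count was 17, and the counts were 30, 39, 23 and 40 for the gate comparisons in the order above. In the WT-titled preparations alone, the counts for the gate comparisons in the same order were 33, 36, 21 and 40. In preparations 5 and 8 alone they were 29, 43, 33 and 41. In preparations 5 and 8 alone, the log2 change of G1 against G0 turned to -0.009 for Mis12 and -0.293 for Cenpb. In E13.5 against E10.5 in G0, the log2 change ranged from -0.532 to 0.72 for Cenpf, -0.367 to 1.136 for Bub1b and -0.647 to 1.079 for Aurkb with 1 preparation left out, and that of Cenpf in the difference of S-G2-M against G0 between days from -0.59 to 0.819. The causes were not tested. The day comparisons rest on 2 preparations each.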
